A study of Forsythia suspensa with 2 samples.

Results

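Among the transcripts of Forsythia suspensa that were very abundant in the flower, 58 were 4-fold to under 100-fold lower in the leaf, and so were still clearly counted there. These 58 of 81913 assembled transcripts were chosen by their counts in both libraries. A transcript was a member if its flower CPM (its count divided by the library sum, times 1000000) was at least 500 and its level in flower divided by its level in leaf was at least 4 and under 100. A level is the count plus 2, divided by the library sum. Because the flower and leaf counts made the choice, the abundances and ratios below are a description of the chosen transcripts and carry no test.

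Forsythia suspensa is a shrub of the olive family, grown as an ornamental and used in East Asian medicine, and its yellow flowers open before the leaves. The groups were 1 flower library and 1 leaf library, both of polyadenylated RNA from plants aged 2 years growing outdoors. No treatment, replicate, pooling or cultivar is given in the labels, so none of the differences has a replicate check. The flower library summed to 7442016 expected counts and the leaf library to 7234013.

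A flower is made of sepals, petals, stamens and pistil, and includes tissues that make pigment, scent, nectar and pollen. A leaf blade is mostly photosynthetic mesophyll with epidermis and veins. Both organs share epidermis, vascular tissue and the housekeeping functions of every plant cell. The files give assembly identifiers and no gene names, so the function of the 58 transcripts is not described here, and the tissue labels could not be set against marker genes. In whole organs, fewer cells that hold a transcript and less of it per cell cannot be told apart.

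The 58 transcripts together took a large share of the flower RNA and a small one of the leaf RNA. They held 713825 counts in flower, which is 9.59% of that library (95% interval 9.57 to 9.61), and 69850 counts in leaf, which is 0.966% (0.958 to 0.973). The summed share was thus 9.93-fold higher in flower, or, put the other way, the leaf held 10.1% of the flower share. The intervals are exact Clopper-Pearson intervals and cover counting error only. Per unit of length the shares were 7.88% of all TPM in flower and 0.900% in leaf. TPM is the count divided by the effective transcript length and scaled to a total of 1000000.

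**Figure D1:**
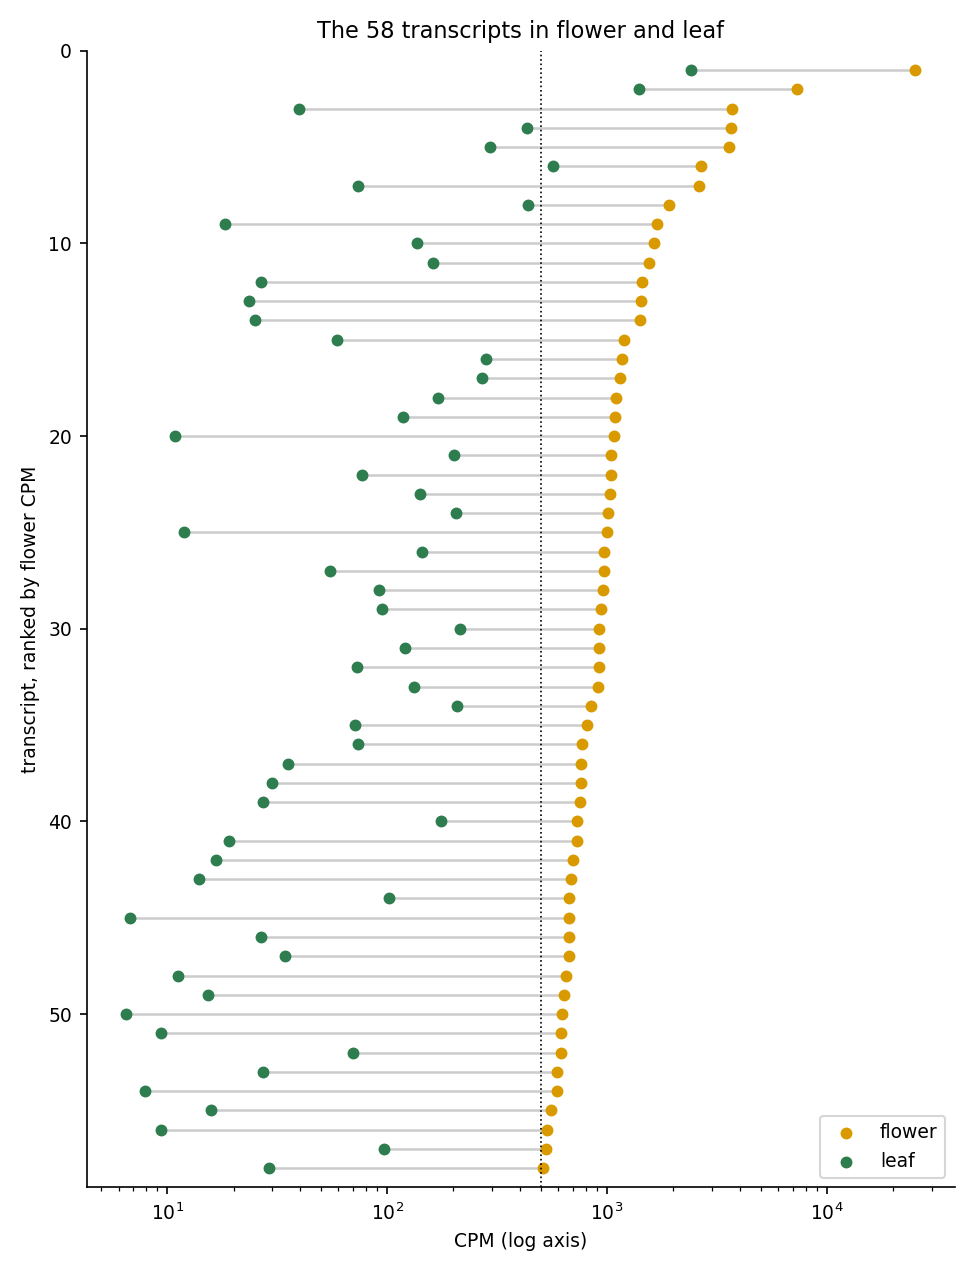
CPM of each of the 58 transcripts in flower and in leaf on a log axis, 1 row per transcript, ordered by flower CPM; the dotted line marks 500 CPM. Flower values run from 512 to 25204 CPM, and 3 transcripts lie above 500 CPM in leaf as well.

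A single transcript carried a large part of this RNA in both organs. TR34082|c0_g1_i1|c0_g1_i1, which is 6387 bases long, received 187568 counts in flower against 17484 in leaf, or 25204 CPM in flower against 2417 CPM in leaf. Its count ratio was 10.4-fold (10.3 to 10.6, exact interval conditional on its total count). It was the most abundant transcript of the flower library and still ranked 24 in leaf. It made up 26.3% of the members' flower counts and 25.03% of their leaf counts. Without it, the other 57 took 7.07% of all flower counts (7.05 to 7.09) against 0.724% of all leaf counts (0.718 to 0.730), and the summed ratio was 9.77. The summed ratio of the group moved little, as that transcript's own ratio was close to it.

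The next in order was TR23305|c0_g1_i1|c0_g1_i1, of 701 bases, with 54554 counts in flower against 10076 in leaf. That is 7331 CPM in flower against 1393 CPM in leaf, a ratio of 5.26-fold (5.15 to 5.38). It ranked 3 in the flower library and 61 in the leaf library. Per length it was the leading transcript of the group, at 13062 TPM in flower against 2565 TPM in leaf. Both leading transcripts were thus among the 100 most abundant of the leaf as well.

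The remaining 8 of the 10 most abundant differed widely in how much of them was found in the leaf. The third, of 2528 bases, had 3698 CPM in flower against 39.7 CPM in leaf, a level ratio of 92.6. The fourth, of 783 bases, had 3660 CPM in flower against 432 CPM in leaf, a level ratio of 8.48. The fifth, of 3227 bases, had 3602 CPM in flower against 293 CPM in leaf, a level ratio of 12.3. These 3 had nearly the same flower abundance, while their leaf abundance spanned about an order of magnitude. The sixth, of 1299 bases, had 2672 CPM in flower against 567 CPM in leaf, a level ratio of 4.71. The seventh, of 1132 bases, had 2605 CPM in flower against 73.5 CPM in leaf, a level ratio of 35.3. The eighth, of 2104 bases, had 1919 CPM in flower against 439 CPM in leaf, a level ratio of 4.37. The sixth and the eighth were close to the lower limit of the rule, unlike the seventh. The ninth, of 527 bases, had 1685 CPM in flower against 18.4 CPM in leaf, a level ratio of 90.3. The tenth, of 1247 bases, had 1639 CPM in flower against 137 CPM in leaf, a level ratio of 12.0.

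The counts were concentrated in few of the 58 transcripts. The first 7 held 50.8% of the group's flower counts, and the first 10 held 56.3% of its flower counts and 60.2% of its leaf counts. Above 2000 CPM in flower there were 7 transcripts, from 1000 to 2000 CPM there were 17, and from 500 to 1000 CPM there were 34. Without the first 10, the other 48 took 4.19% of all flower counts against 0.385% of all leaf counts, and their summed ratio was 10.9.

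The ratio was spread over the whole range that the rule allows. Its median was 13.1, with quartiles of 6.94 and 41.3, and it ran from 4.08 to 97.3. On the log2 scale the median was 3.71 and the SD over transcripts 1.48. There were 17 transcripts at a ratio of 4 to 8, 13 at 8 to 16, 9 at 16 to 32, 11 at 32 to 64 and 8 at 64 to 100. The ratios thus did not gather at a single value inside the limits. The median ratio of 13.1 lay above the summed ratio of 9.93, in which abundant transcripts weigh more.

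Most of the leaf RNA of the group came from the transcripts with the smallest ratios. This holds in part by construction, since at a given flower level a smaller ratio means a higher leaf level. The 30 transcripts with a ratio under 16 held 70.6% of the group's flower counts and 92.9% of its leaf counts. The 8 with a ratio of 64 or more held 10.4% of its flower counts and 1.15% of its leaf counts. Flower shares of the total library were 2.49% for the transcripts at 4 to 8 and 4.28% for those at 8 to 16, the second including the most abundant transcript. Their leaf shares were 0.486% at 4 to 8 and 0.411% at 8 to 16.

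In the leaf the group ranged from rare to very abundant transcripts. Flower CPM had a median of 933 and spanned 49.2-fold. Leaf CPM ran from 6.497 to 2417 with a median of 72.0 and spanned 372-fold. In leaf, 3 transcripts had at least 500 CPM, 19 had 100 to 500 CPM, 11 had 50 to 100 CPM, 20 had 10 to 50 CPM and 5 were under 10 CPM. All 58 ranked among the 163 most abundant in flower, where 163 transcripts reached 500 CPM. In leaf, 17 of the 58 were among the 1000 most abundant and 47 among the 10000 most abundant. The lowest leaf rank was 17824. The lowest leaf count was 47, above the 3 counts that a count of 0 allows (0.415 CPM in leaf). The rule sets this, since the flower minimum and the upper ratio limit together keep leaf counts away from 0.

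A high leaf abundance went with a small ratio, in part by construction, while flower abundance was only weakly related to the ratio. Across the 58 transcripts, which share the same 2 libraries and were cut at 500 CPM and at both ratio limits, Spearman's rho was 0.58 between flower CPM and leaf CPM. Between flower CPM and the ratio it was -0.23. Between leaf CPM and the ratio it was -0.90. These are descriptions across transcripts, not across samples.

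The order within the group changed when counts were divided by length. A longer transcript yields more counts at the same number of molecules, and the rule was set on CPM. Spearman's rho between length and flower TPM was -0.70 over the 58 transcripts, while between length and flower CPM it was -0.06. The leading transcript by CPM was the fifth by TPM, at 3836 TPM in flower against 376 TPM in leaf. The shortest member, of 326 bases, was 11th by CPM and second by TPM, with 9385 TPM in flower against 1040 TPM in leaf. The longest member, of 8803 bases, had 758 CPM in flower against 29.9 CPM in leaf, but 83.1 TPM in flower against 3.34 TPM in leaf, the lowest TPM of the group in both organs. A value of at least 500 TPM in flower was reached by 33 of the 58, with a median length of 1167 bases, and the other 25 had a median of 2105 bases.

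**Figure D2:**
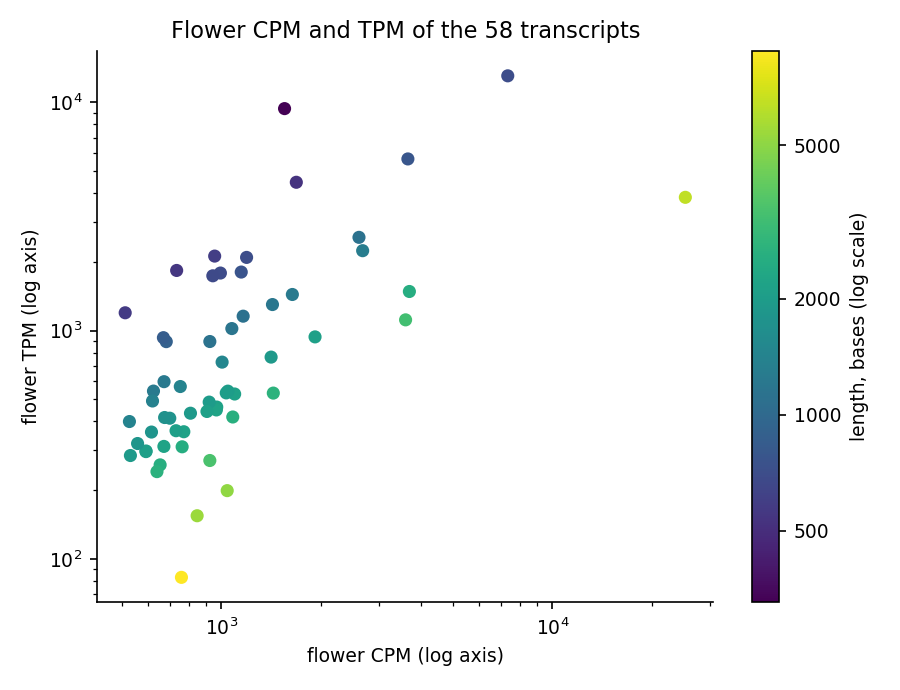
Flower TPM against flower CPM of the 58 transcripts on log axes, coloured by length in bases. At a given CPM the short transcripts lie highest; the leading transcript by CPM, at 25204, has 3836 TPM, below the 13062 TPM of the 701-base transcript.

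The ratio itself showed little relation to length. Spearman's rho between length and the level ratio was 0.02 over the 58 transcripts. Ratios of TPM were 0.939 to 0.980 of the ratios of CPM, with the smallest value for the 326-base transcript. TPM comes from the same counts, so by TPM all 58 were necessarily higher in flower. Their TPM ratios ran from 3.99 to 97.2, with a median of 12.8. For 1 of the 58 the TPM ratio was below 4.

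Members just inside the limits were close in value to transcripts just outside. The lowest flower values inside were 512, 528 and 531 CPM. The highest outside, among transcripts with a ratio of 4 to 100, were 496, 496 and 493 CPM. The lowest ratios inside were 4.08, 4.13 and 4.15, and the nearest below were 3.91, 3.84 and 3.80. The highest ratios inside were 97.3, 95.3 and 92.6, and the nearest above were 102, 104 and 130. The counting interval of the ratio crossed 4 for 3 members and 100 for 6 members, so 9 of the memberships lie within counting error of a ratio limit.

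Set against other abundant flower transcripts, the group was one of 3 sizeable classes. Of the 163 transcripts with at least 500 CPM in flower, these 58 made up 35.6%, the share that met the ratio limits of the rule. A further 26 had a ratio of at least 100, 71 differed by less than 4-fold between the organs, and 8 were at least 4-fold higher in leaf. The 58 held 9.59% of the flower counts, more than the 6.92% of the 71 and the 3.85% of the 26. Of the leaf counts they held 0.966%, against 6.12% for the 71 and 0.0124% for the 26. The largest share of the flower counts among these classes therefore lay in the transcripts with a ratio of 4 to under 100. The 26 were counted in leaf as well, at 0.276 to 22.1 CPM, which overlaps the leaf range of the 58. Without the most abundant transcript the group's share was 7.07%, close to that of the 71.

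**Figure D3:**
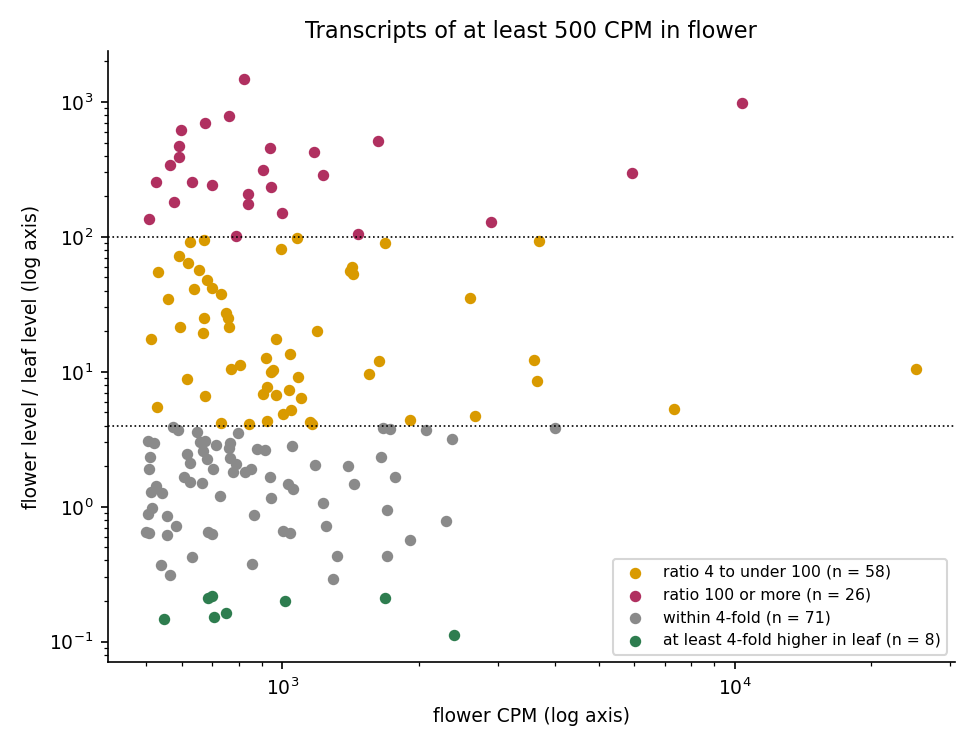
Level ratio, flower over leaf, against flower CPM for the 163 transcripts of at least 500 CPM in flower, on log axes, with dotted lines at ratios of 4 and 100. The 58 members fill the band between the lines from 4.08 to 97.3, with 26 transcripts above it and 79 below.

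The share of transcripts in this ratio range changed with abundance. In flower it was 22.8% at 1 to 5 CPM, 15.6% at 5 to 10 CPM, 11.8% at 10 to 50 CPM, 10.96% at 50 to 100 CPM, 18.5% at 100 to 500 CPM and 35.6% at 500 CPM or more. At low abundance few counts stand behind each ratio, and a ratio of 100 cannot be reached. Over all 44042 transcripts of at least 1 CPM in either library, 15.4% were 4-fold to under 100-fold higher in flower. Binning by flower CPM itself favours transcripts that are higher in flower. The leaf was binned by leaf CPM, which favours transcripts higher in leaf and so does not remove this bias. In the leaf bins the share with a leaf-over-flower ratio of 4 to under 100 was 13.5% at 50 to 100 CPM and 23.1% at 100 to 500 CPM. It was 60.5% at 500 CPM or more (130 of 215). In each organ the most abundant transcripts were the ones most often found in this range, which the binning itself favours. How far the binning accounts for it was not tested. The top flower bin holds the group itself. These are shares of transcripts in 1 library per organ, and whether flower and leaf differ in them was not tested.

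**Figure D4:**
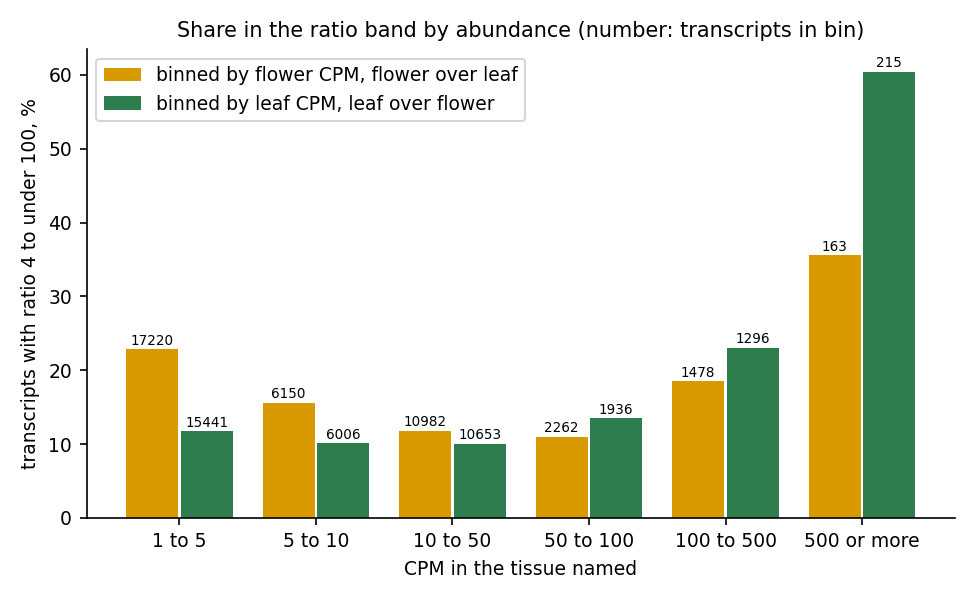
Percent of transcripts with a ratio of 4 to under 100, by CPM in the tissue named, for flower over leaf and for leaf over flower; the number above each bar is the number of transcripts in the bin. At 500 CPM or more the bars stand at 35.6% of 163 transcripts for flower and 60.5% of 215 for leaf.

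The 58 flower transcripts were fewer than the reverse class in leaf, and their ratios were more spread. Their flower-over-leaf ratio had a median of 13.1, with quartiles of 6.94 and 41.3. The 130 transcripts of at least 500 CPM in leaf with a leaf-over-flower ratio of 4 to under 100 had a median ratio of 6.37, with quartiles of 5.02 and 8.27. The difference has no replicate behind it and was not tested.

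The 58 transcripts were long for this assembly, as abundant transcripts generally were. Their median length was 1804.5 bases, with quartiles of 1135 and 2181 and a range of 326 to 8803. The median was 1857 bases over all 163 transcripts of 500 CPM or more in flower, 449 bases over all 81913 transcripts and 934 bases over the 44042 of at least 1 CPM. Within the abundant flower transcripts it was 1319 bases for the 26 with a ratio of at least 100 and 2315 bases for the 71 within 4-fold. For the 8 that were at least 4-fold higher in leaf it was 1776.5 bases. It was 1585 bases for the 130 in the reverse class in leaf. The ranges of all these classes overlapped that of the group. Of the 58, 13 were at most 1000 bases and 23 were over 2000 bases long. The abundance minimum bears on these lengths, since at a given number of molecules a long transcript passes it more easily.

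**Figure D5:**
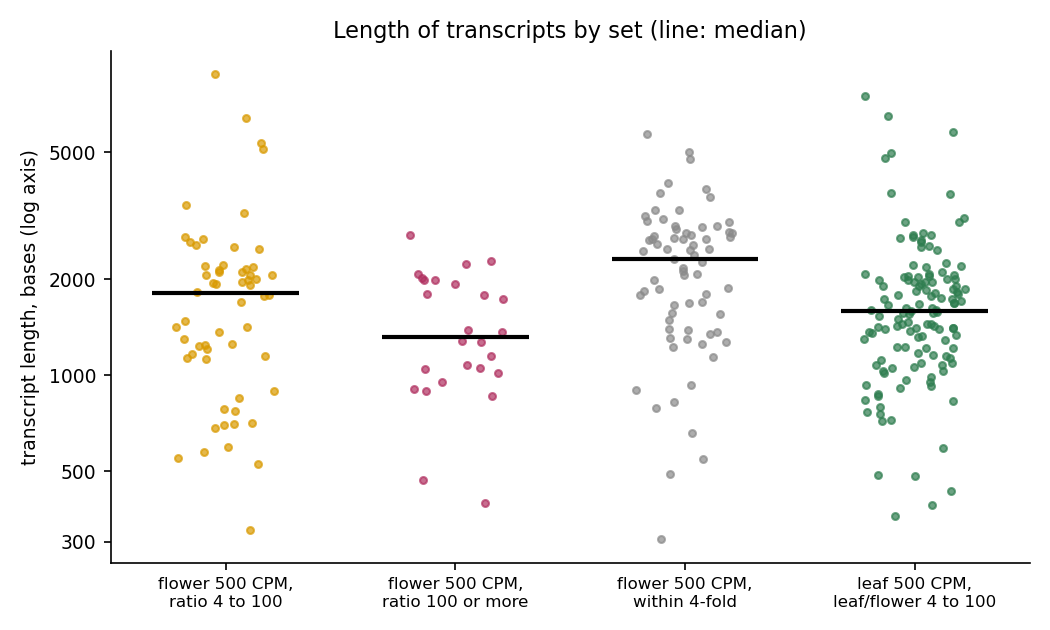
Length in bases, on a log axis, of each transcript in 4 classes of at least 500 CPM in the tissue named, with the median as a line. The medians are 1804.5 for the 58 members, 1319 for the 26 at a ratio of 100 or more, 2315 for the 71 within 4-fold and 1585 for the 130 leaf transcripts, and the ranges overlap.

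Most members stood alone in their locus, as most transcripts of the assembly did. Read from the identifiers, 51 of the 58 were the only transcript of their locus (87.9%), against 67.6% of the 71 within 4-fold and 92.3% of the 26 at a ratio of at least 100. The share was 79.8% over the 163 abundant flower transcripts and 74.2% over all 81913. By the first field of the identifier, which marks a cluster of reads assembled together, 38 of the 58 were alone (65.5%), against 69.2% of the 26, 50.7% of the 71 and 56.9% of all transcripts. A total of 2 members shared a locus, so the 58 stood for 57 loci. This pair had 1917 and 2065 bases. The shorter had 10521 counts in flower against 181 in leaf, a count ratio of 56.5-fold (48.8 to 65.8). The longer had 5432 counts in flower against 138 in leaf, a count ratio of 38.3-fold (32.3 to 45.6). These counts were used by the rule and are given as a description. Reads common to both transcripts could have been counted in either, which the intervals do not cover.

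Other transcripts of the same clusters did not always share the members' ratio. There were 65 of them, in 18 clusters, of which 27 were at least 4-fold higher in flower, 36 lay within 4-fold and 2 were at least 4-fold higher in leaf. Only 11 of the 65 lay in the member's own locus, with a median ratio of 3.78, and 54 lay in other loci, with 2.44. The 11 came from 5 loci, mostly those of the 40th and the 38th member, so their median rests on few loci. The value of 3.78 is that of a transcript in the locus of the 40th member. With the minimum of 1 CPM, 27 of 62 were at least 4-fold higher in flower, against 15.8% of the 44042 transcripts that met it. Of these 27, 10 came from the cluster of the 25th member and 4 from that of the 47th, while several clusters had none. Transcripts of a cluster may share sequence, which was not checked, and were drawn in through an abundant flower transcript. They are therefore not independent of the members. They were mostly minor, with a median of 59.0 CPM in flower.

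A few clusters show both patterns. In the cluster of the 25th member, of 696 bases, all 10 other transcripts were flower-rich by at least 4-fold, with ratios of 5.97 to 143, and the cluster as a whole had a ratio of 70.3. The 15th member, of 709 bases, had 8872 counts in flower against 427 in leaf, a level ratio of 20.1. The 6 other transcripts of its cluster had ratios of 0.569 to 1.73, and the whole cluster a ratio of 1.70. The member was thus the flower-rich transcript of a cluster otherwise at like levels in both organs. The cluster of the 31st member, of 3407 bases, was of the same kind, with a member ratio of 7.65, other ratios of 0.701 to 1.07 and a whole-cluster ratio of 2.69. In the cluster of the 46th member, of 2210 bases, the 2 other transcripts were higher in leaf, with 46 and 9 counts in flower against 335 and 87 in leaf. The ninth member, of 527 bases, shared its cluster with a transcript of 398 bases that had 4394 counts in flower against 7 in leaf, and the whole-cluster ratio was 116. The 40th member, of 548 bases, held only 19.8% of its cluster's flower counts, and the whole cluster, at 3693 CPM in flower against 973 CPM in leaf, had a ratio of 3.80. Of the 19 clusters with more than 1 transcript, 13 kept a ratio of 4 to under 100 when all counts were summed and 6 did not. For the members of those 6 clusters the class depends on counting the transcript and not the cluster. These cluster sums include transcripts of other loci, so they are not sums over the member's own locus.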

How the data were processed

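RNA of 1 flower and 1 leaf sample was measured by strand-specific sequencing after oligo(dT) selection, per the labels' protocols. The submitters' processing notes name Trimmomatic, a read trimmer, and RSEM, a quantifier. Versions, aligner, assembler and the reference used are not given in these sources. The authors deposited an expected count per transcript, all whole numbers (0 fractional in either library), so rounding altered none. They also deposited TPM and FPKM, both divided by effective length, and an isoform percent that was not used further. Their series-wide FPKM table held the same values for 81913 transcripts in each tissue, to within 0.005.

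CPM, levels and ratios were computed in Python 3.11.15 (numpy 2.4.6, pandas 2.3.3, scipy 1.17.1, figures in matplotlib 3.10.9), scaled by library sums, with 2 added to each count in a level. A single count equals 0.134 CPM in the flower library, which summed to 7442016, and 0.138 CPM in the leaf library, which summed to 7234013. Alternatives used edgeR 4.0.16 TMM factors and DESeq2 1.42.0 size factors in R 4.3.3. The rule was also run on simulated counts with counting noise only and with planted ratios away from its limits. That run does not bear on members near a limit or on differences between plants. With 1 library per tissue no test was made. PCR copies were not separated, and intervals cover counting error only. The members, classes and alternatives were chosen with earlier results of these data known. Identifiers are printed for the 2 members of highest flower CPM, and the others are given by rank. The clusters described singly were chosen after their values were seen.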

Additional observations from a re-analysis of the deposited data

How the results depend on the processing

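No paired analysis was possible because each tissue has 1 sample, and no replicate could be left out. With an added count of 0.5 the 58 members remained, so that both shares and the median length were the same by construction, and the median log2 ratio was 3.71 as before. The share of flower counts (9.59%) and of leaf counts (0.966%) came to 9.47% and 0.917% with TMM (57 transcripts, 56 of them members). They came to 9.64% and 0.991% with DESeq2 size factors (60 transcripts, 57 of them members). Those factors were 1 for both libraries, so that this setting compares unscaled counts. Over assembly loci, of which 63 met the rule, the shares were 9.99% and 1.01%. By TPM the set was 43 transcripts, 33 of them members, holding 7.996% and 0.837%. By FPKM it was 47, 35 of them members, holding 8.19% and 0.845%. The median length was 891 bases with either unit in place of 1804.5. A minimum per unit of length drops long members and admits shorter transcripts. The 33 members of at least 500 TPM in flower had a median of 1167 bases, and the other 25 had 2105. With a lower ratio limit of 8 the shares of flower and leaf counts were 7.10% and 0.479%, with a median log2 ratio of 4.65 in place of 3.71. A limit of 3 gave shares of 11.2% and 1.42%. With a minimum of 250 CPM there were 131 transcripts, holding 12.1% and 1.27%, with a median log2 ratio of 3.26. With 1000 CPM there were 24, holding 7.07% and 0.758%. With 1 CPM there were 6764, holding 21.4% and 2.14%, with a median log2 ratio of 2.94 and a median length of 625 bases. Chosen after seeing the data, leaving out the most abundant member gave 7.07% and 0.724%, and the 38 members alone in their cluster held 7.46% and 0.802%. The median log2 ratio over the 44042 transcripts of at least 1 CPM was 0.17 with library sums, 0.12 with TMM and 0.21 with DESeq2. Depth limits the ratio most for the 8 members with under 100 leaf counts.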
